A study of Mus musculus with 6 samples.

Results

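The growth hormone and prolactin axis was described through 9 genes chosen by symbol: the hormone genes Gh and Prl, the receptor genes Ghr and Prlr, the kinase gene Jak2, the transcription factor genes Stat5a and Stat5b, and the feedback inhibitor genes Socs2 and Cish. They are 9 of the 50348 gene names that the mouse pituitary tables list between them. All 9 are listed for the P7 Tshbcre, P7 whole and adult Tshbcre libraries. The adult whole table lists 8 of them, without Gh. The adult Lhbcre table lists 7, without Gh and Prl. The adult Ghcre table lists 6, without Gh, Prl and Cish. A gene that a table does not list was treated as not measured there, not as absent.

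Total RNA was sequenced from 6 preparations, 1 library each. With no replicates, differences are given as sizes with no test. P7 Tshbcre cells were pooled from 5 glands at postnatal day 7 (P7), and the P7 whole preparation was pooled from 8 nontransgenic glands of the same age. At 7 weeks, adult Tshbcre cells came from 42 glands, adult Ghcre cells from 12 and adult Lhbcre cells from 7, while the adult whole preparation was 1 nontransgenic gland. Sorted mice carried a Cre driver named for a hormone gene (Tshb of thyrotropes, Gh of somatotropes or Lhb of gonadotropes) together with a ROSA reporter that Cre switches on to give YFP, and the fluorescent cells were collected by FACS. A Cre reporter marks every cell in which the driver was active at any time, so a sort follows the history of a driver and not only the present hormone. Glands of like genotype were pooled and dispersed with collagenase before sorting, and ribosomal RNA was depleted before sequencing. The labels used here name neither sex nor strain.

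Growth hormone is made by somatotropes and prolactin by lactotropes, sister cell types that both need the transcription factor POU1F1. Both hormones act on receptors of the cytokine family, GHR and PRLR, that have no kinase of their own and signal through bound JAK2. JAK2 phosphorylates STAT5A and STAT5B, which enter the nucleus and switch on target genes, among them Socs2 and Cish, whose proteins then damp the receptor. Dopamine from the hypothalamus holds prolactin down through the receptor DRD2, and GHRH from the hypothalamus raises growth hormone through GHRHR.

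Levels are given in scaled FPKM: fragment counts normalised for transcript length and library depth (FPKM), summed over the annotated transcripts of a gene and divided by 1 factor per library. Bounds in parentheses are the authors' deposited bounds, which describe error inside 1 library and not between animals. Differences between libraries are of log2(scaled FPKM + 1), with folds on that scale, and genes were called apart at 4-fold or more provided that the higher level was at least 1. The same files hold unnamed transcripts that the authors' assembly found in a locus. Where those of 200 nt or more were added to their gene, the value is called the level with assembled transcripts. Depth of the other 5 libraries relative to the adult whole gland ran from 1.15 to 2.73.

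Defining markers were compared with the label of each sort. Tshb, the hormone gene of thyrotropes alone, was at 3001 scaled FPKM in P7 Tshbcre cells against 61.0 in P7 whole glands, at 1075 in adult Tshbcre cells and at 9.05 in adult Lhbcre cells against 33.1 in the adult whole gland. Thyrotrope markers (Tshb, Trhr, Dio2 and Cga) summed to 12773 scaled FPKM in P7 Tshbcre cells against 821 in the P7 whole glands, and to 7672 in adult Tshbcre cells and 3668 in adult Lhbcre cells against 842 in the adult whole gland. Most of each sort's sum was Cga, the subunit that gonadotropes share, at 9593 in P7 Tshbcre, 6546 in adult Tshbcre and 3649 in adult Lhbcre cells. Gonadotrope markers (Lhb, Fshb, Gnrhr, Nr5a1 and Tgfbr3l) summed to 2848 in adult Lhbcre cells against 922 in the adult whole gland, and they also reached 4299 in adult Tshbcre cells. In adult Ghcre cells 3 of 5 somatotrope markers are listed and summed to 61.9. The sum of 58.0 for 4 of 5 in the adult whole gland includes Ghrhr at 27.2, which is not listed for Ghcre cells. Each of the 3 shared markers was higher in Ghcre cells than in the adult whole gland. Neurod4 was at 15.8 against 5.07, Pappa2 at 32.8 against 18.7 and Rxrg at 13.2 against 7.04. Neurod4 was also at 13.3 in adult Lhbcre cells (1.92 in adult Tshbcre cells), and Rxrg at 11.3 in adult Tshbcre cells (4.91 in adult Lhbcre cells). Pappa2 was at 4.67 in adult Tshbcre cells and listed at 0 in adult Lhbcre cells, or 7.49 with assembled transcripts. Gh itself, the defining gene of the Ghcre sort, could not be read in adult Ghcre cells.

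Prl (chr13:27241553-27249187, mm39, as are all gene positions) spanned a wider measured range than any other gene of the axis, 812-fold. That range covers the 4 libraries that list Prl, while Gh is listed in 3, without the adult whole gland. Prl stood at 21.7 scaled FPKM (19.0 to 24.3) in P7 Tshbcre cells, 82.5 (77.3 to 87.7) in P7 whole glands, 6546 (6273 to 6820) in adult Tshbcre cells and 17579 (16851 to 18307) in the adult whole gland. Both P7 libraries were far below both adult libraries, and no bounds overlapped. On the log2 scale P7 whole glands minus the adult whole gland gave -7.72, 210-fold lower at P7, and P7 Tshbcre cells minus adult Tshbcre cells gave -8.18, 289-fold lower at P7. Prl ranked at the 0.102 percentile of all genes in the whole-gland difference and at the 0.119 percentile in the Tshbcre difference. It was the 1 member of 8 measured that was called apart between P7 and adult whole glands, where 6.59% of all genes were called, 3.28% as lower and 3.31% as higher. It was also the 1 member of 9 called apart between P7 and adult Tshbcre cells, where 8.21% of all genes were called, 4.64% as lower and 3.57% as higher.

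Sorted Tshbcre cells held less Prl than whole glands at either age. The level was 3.69-fold lower in P7 Tshbcre cells than in P7 whole glands and 2.69-fold lower in adult Tshbcre cells than in the adult whole gland, short of the 4-fold threshold at each age. Even so, Prl in adult Tshbcre cells was 6.09 times the level of Tshb itself, against 0.00722 times in P7 Tshbcre cells.

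Other lactotrope markers were lower at P7 as well, by less. Drd2, the dopamine receptor of lactotropes, stood at 5.52 scaled FPKM in P7 whole glands against 23.8 in the adult whole gland. Esr1, the estrogen receptor that drives Prl, stood at 5.88 against 20.8, and Angpt1, an angiopoietin, at 2.35 against 8.15. Edil3 was called apart, at 0.917 against 8.47. Together these 4 markers without Prl summed to 14.7 in P7 whole glands against 61.2 in the adult whole gland, and to 9.83 in P7 Tshbcre cells against 38.2 in adult Tshbcre cells. None of the 4 was listed at 0 in any of these 4 libraries. Most of both Tshbcre sums was Esr1, at 6.84 in P7 and 28.5 in adult Tshbcre cells. Esr1 was also at 35.7 in adult Lhbcre cells, so in adults it was higher in both sorts than in the whole gland. In P7 against adult Tshbcre cells, Drd2 was at 0.484 against 3.12, Angpt1 at 0.240 against 2.76 and Edil3 at 2.26 against 3.80. In bulk RNA, fewer cells of a type and less RNA per cell cannot be told apart. Markers of sex also differed between the ages. Xist, expressed from the inactive X chromosome, was at 17.0 in P7 whole glands against 0.0599 in the adult whole gland, and at 62.6 in P7 Tshbcre cells against 0.106 in adult Tshbcre cells. The Y-linked Ddx3y was at 2.12 in P7 whole glands against 2.61 in the adult whole gland, and at 2.09 in P7 Tshbcre cells against 3.20 in adult Tshbcre cells. The part of sex in the Prl difference was not tested.

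The Prl promoter is shown because Prl carried the largest measured difference among the 9 genes and because POU1F1, the factor shared with Gh, is known to bind there. The 300 bases run from 250 before to 50 after the RefSeq start, chr13:27057320-27057619 on the plus strand of GRCm38.p6. Capitals mark the motif TATNCAT of POU1F1, on either strand, and an overlapping pair of TATA boxes (TTTATA and TATAAA).
Prl promoter: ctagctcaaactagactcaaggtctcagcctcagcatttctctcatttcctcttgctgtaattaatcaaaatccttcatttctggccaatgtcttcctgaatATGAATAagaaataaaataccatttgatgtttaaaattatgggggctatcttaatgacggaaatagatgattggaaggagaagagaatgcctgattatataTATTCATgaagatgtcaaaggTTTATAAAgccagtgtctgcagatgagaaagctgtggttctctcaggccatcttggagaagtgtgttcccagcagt
The POU1F1 motif starts at -148 (as ATGAATA, its reverse complement) and at -47 (as TATTCAT), counted from the start. Of 32851 promoter windows of this length in the RefSeq table, 8.84% hold the motif at least once, and 13.6% hold a TATA box on either strand. A match describes the letters only. Pou1f1 itself was at 21.4 scaled FPKM in P7 whole glands against 39.0 in the adult whole gland, and at 38.3 in P7 Tshbcre cells against 23.1 in adult Tshbcre cells, so its 2 differences between the ages ran in opposite directions.

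**Figure D1:**
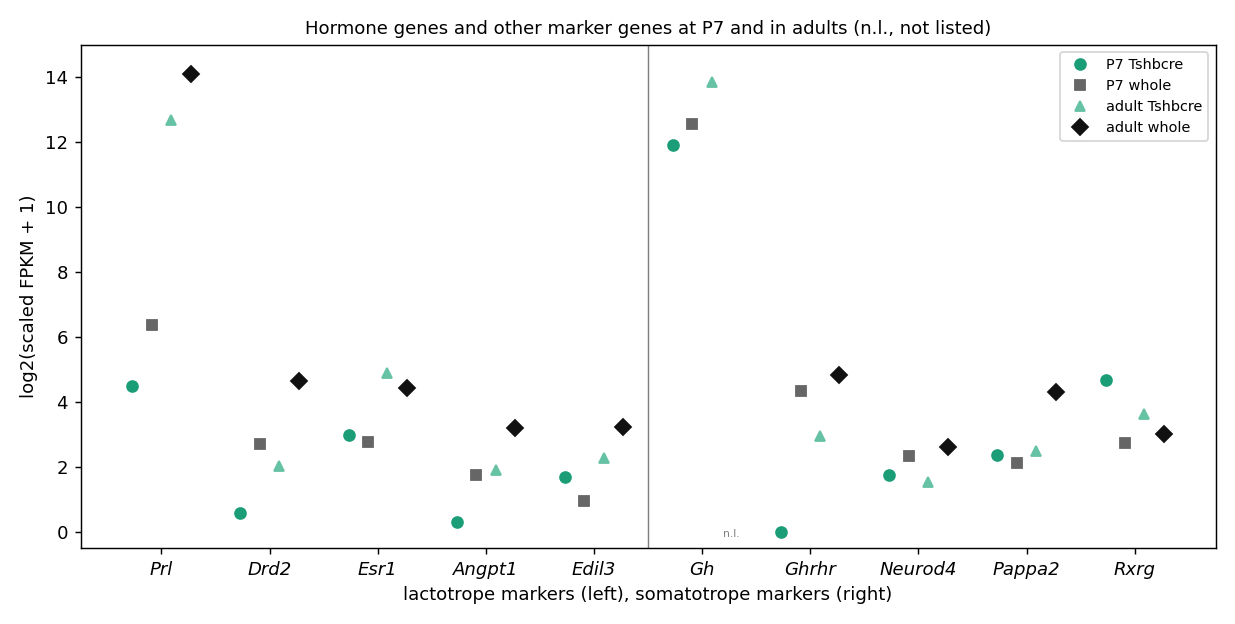
Levels of lactotrope markers (left of the line) and somatotrope markers (right) as log2(scaled FPKM + 1) in P7 Tshbcre cells, P7 whole glands, adult Tshbcre cells and the adult whole gland, 1 point per library (n.l., not listed). Prl separates the P7 from the adult libraries by -7.72 (whole) and -8.18 (Tshbcre), while Drd2, Esr1, Angpt1 and Edil3 lie lower at P7 by less.

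Gh (chr11:106191087-106194529) was high wherever it is listed. It stood at 3870 scaled FPKM (3707 to 4033) in P7 Tshbcre cells, 6031 (5780 to 6283) in P7 whole glands and 14806 (14192 to 15420) in adult Tshbcre cells, where it ranked 4 among all genes. Bounds of the 3 libraries did not overlap. P7 Tshbcre cells were 3.83-fold lower than adult Tshbcre cells (log2 -1.94), just short of the threshold, and 1.56-fold lower than P7 whole glands (log2 -0.64). Relative to Tshb, Gh was 1.29 times as high in P7 Tshbcre cells and 13.8 times as high in adult Tshbcre cells. The other 4 somatotrope markers (Ghrhr, Neurod4, Pappa2 and Rxrg) summed to 30.9 in P7 Tshbcre cells and 24.6 in adult Tshbcre cells, with Ghrhr listed at 0 at P7. With assembled transcripts Ghrhr was at 33.4 in P7 Tshbcre cells and 18.1 in adult Tshbcre cells. In P7 whole glands those 4 markers summed to 32.5, but the 2 P7 sums differed in makeup. Most of the P7 Tshbcre sum was Rxrg, at 24.5 against 5.73 in P7 whole glands. Rxrg was at 11.3 in adult Tshbcre cells against 7.04 in the adult whole gland. Most of the P7 whole sum was Ghrhr, at 19.3, which was 1.14-fold lower in P7 Tshbcre cells with assembled transcripts. Neurod4 was at 2.36 in P7 Tshbcre cells against 4.02 in P7 whole glands, and Pappa2 at 4.12 against 3.36.

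In Tshbcre cells, the only pair that lists both hormone genes at both ages, the hormones were thus unequally lower at P7. The ratio of Gh to Prl was 179 in P7 Tshbcre cells against 2.26 in adult Tshbcre cells, and it was 73.1 in P7 whole glands. The ratio cannot be given for the adult whole gland.

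Each hormone gene has 2 annotated transcripts. Those of Prl (892 and 895 nt) share both ends. The 892 nt transcript made up 34.9% of Prl in P7 Tshbcre cells, 75.02% in P7 whole glands, 68.6% in adult Tshbcre cells and 67.9% in the adult whole gland. Only the P7 Tshbcre library, where Prl was lowest, had most of its Prl in the 895 nt transcript. For Gh, the predicted 865 nt transcript, which starts upstream of the curated 903 nt one, took 67.9% in P7 Tshbcre cells, 82.9% in P7 whole glands and 87.5% in adult Tshbcre cells. Transcripts that overlap so fully share nearly all their reads, and the split depends on their assignment by Cufflinks.

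**Figure D2:**
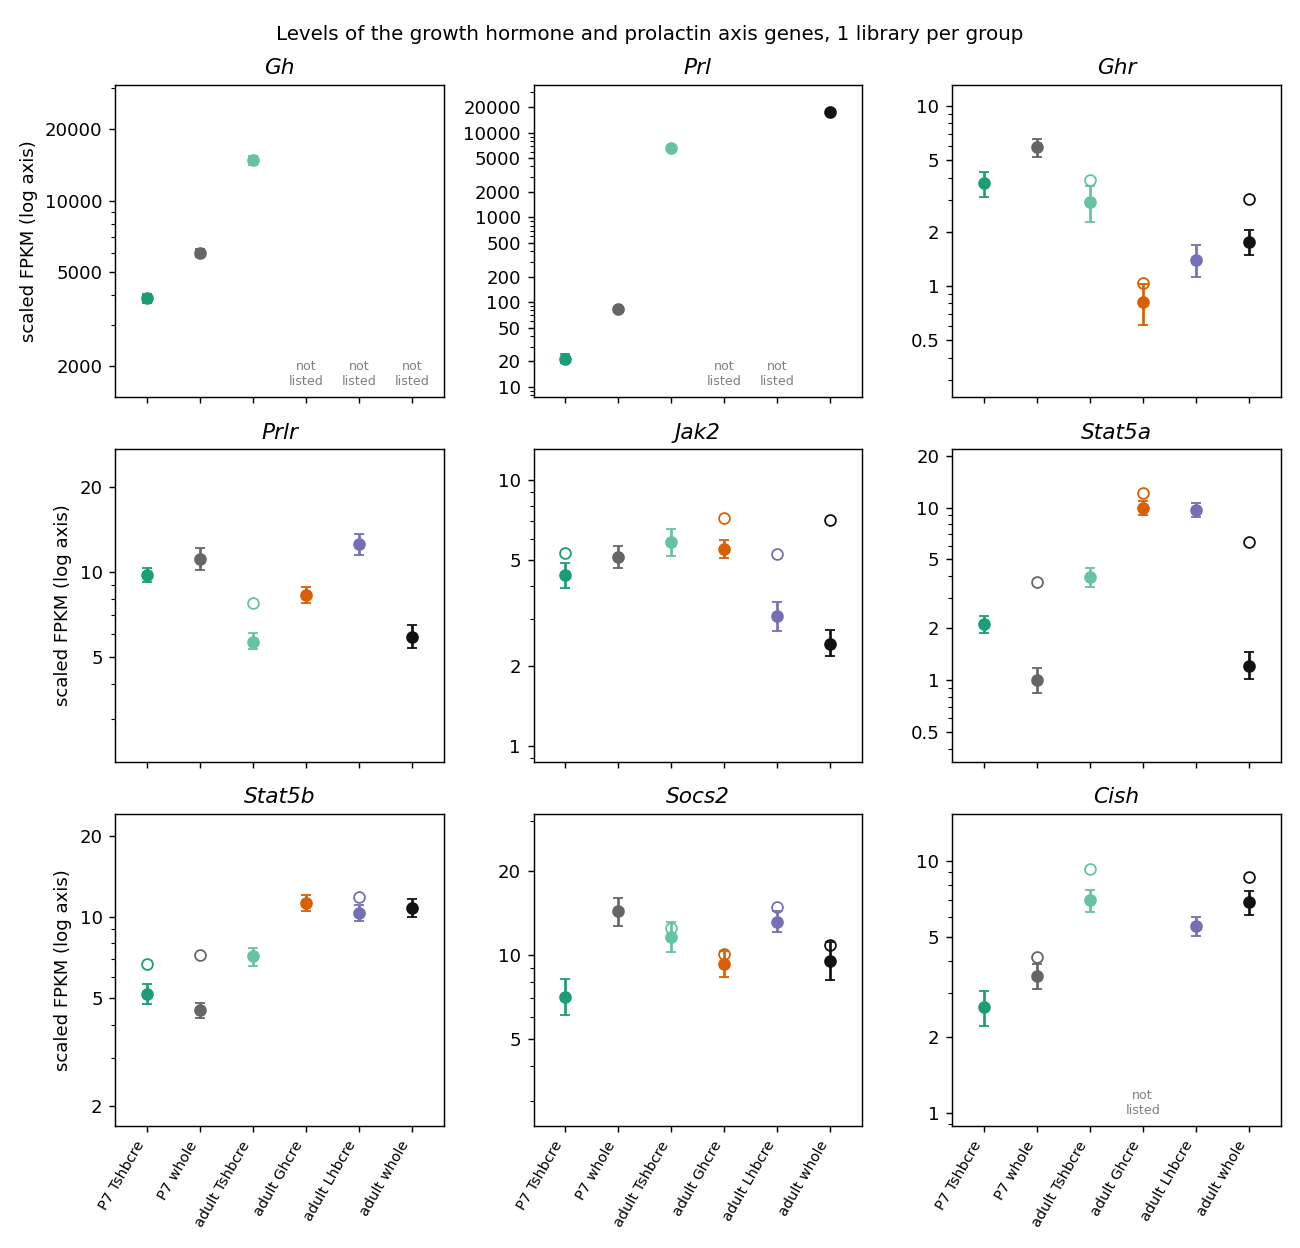
Level of each of the 9 genes in scaled FPKM (log axis, own range per panel) in the 6 libraries; filled points are annotated transcripts with the authors' deposited bounds, and open points are levels with assembled transcripts where these differ. Prl covers an 812-fold range, while Jak2, Stat5b, Socs2 and Prlr stay within a narrow range.

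None of the receptor and signalling genes approached the 812-fold range of Prl. Highest over lowest level was 2.23 for Prlr, 2.40 for Jak2, 2.502 for Stat5b, 2.03 for Socs2 and 2.65 for Cish over the libraries that list them. For Ghr it was 7.22 and for Stat5a 9.96. Over the 5 tables that reach the end of the genome, the median gene had a ratio of 2.64 (quartiles 1.86 and 4.496, 13629 genes). Those 5 tables leave out adult Ghcre cells, and over them the ratio was 4.20 for Ghr, 9.72 for Stat5a and 2.40 for Stat5b. On that measure Socs2 lay at the 31.6 percentile, Prlr at 38.5, Jak2 at 43.8, Stat5b at 43.7, Cish at 50.2, Ghr at 72.9 and Stat5a at 90.8.

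Ghr (chr15:3347237-3612834), the growth hormone receptor, was highest at P7 on annotated transcripts. It stood at 3.71 scaled FPKM (3.11 to 4.31) in P7 Tshbcre cells, 5.88 (5.22 to 6.54) in P7 whole glands, 2.94 (2.26 to 3.61) in adult Tshbcre cells, 0.814 (0.604 to 1.03) in adult Ghcre cells, 1.40 (1.12 to 1.68) in adult Lhbcre cells and 1.75 (1.48 to 2.05) in the adult whole gland. Bounds overlapped between P7 and adult Tshbcre cells and between the adult whole gland and Lhbcre cells. P7 whole glands were 2.499-fold higher than the adult whole gland (log2 1.32), or 1.70-fold with assembled transcripts (5.88 against 3.03). P7 Tshbcre cells and adult Tshbcre cells differed 1.20-fold (log2 0.26), and with assembled transcripts by log2 -0.05. Adult Ghcre cells, the lineage that makes the hormone, had the lowest level of its receptor, 1.52-fold below the adult whole gland and 1.98-fold below it with assembled transcripts. Mesenchymal markers (Col1a1, Col3a1, Dcn, Pdgfrb and Mgp) moved with Ghr in whole glands, summing to 220 in P7 whole glands against 75.7 in the adult whole gland, with a median difference of log2 2.36 that was 0.32 with assembled transcripts. They summed to 4.37 in P7 Tshbcre cells, where Ghr was still at 3.71. The part of such cells in the whole-gland difference was not tested.

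Ghr gives a full receptor and, by another last exon, the growth hormone binding protein of mouse plasma, which lacks the membrane span. The sequences show where the 2 coding regions part, on chromosome 15, minus strand, GRCm38, read from GENCODE transcripts matched to RefSeq names. Both forms share 811 coding bases. The binding protein form then has 83 bases of its own, whole below with its stop codon in capitals, and codes for 297 residues in all. The receptor form goes on for 1142 bases, of which the first 91 are shown, and codes for 650 residues.
Ghr binding protein form, chr15:3327604-3327686: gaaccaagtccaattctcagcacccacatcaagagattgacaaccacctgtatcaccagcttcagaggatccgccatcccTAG
Ghr receptor form, chr15:3325898-3325988: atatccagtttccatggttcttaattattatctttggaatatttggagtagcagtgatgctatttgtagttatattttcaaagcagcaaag
Among annotated transcripts the binding protein form made up 41.9% of Ghr in P7 Tshbcre cells, 41.9% in P7 whole glands, 49.0% in adult Tshbcre cells, 38.7% in adult Ghcre cells and 60.7% in adult Lhbcre cells, and it was listed at 0 in the adult whole gland. That 0 did not hold up in the unnamed transcripts. The adult whole table has an unnamed Ghr transcript of 1116 nt at 1.28 scaled FPKM (0.891 to 1.67) whose 3′ end is, to the base, that of the binding protein form. Unnamed transcripts of adult Tshbcre and adult Ghcre cells end at or near the receptor form's end. Assigned by 3′ end, they put the binding protein form at 37.3% in adult Tshbcre cells, 30.2% in adult Ghcre cells and 42.3% in the adult whole gland, and left the other 3 libraries as they were. The form was then above 0 in all 6 libraries, at 30.2% to 60.7% of Ghr.

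Prlr (chr15:10177324-10349276), the prolactin receptor, was present in every library. Its level was 9.70 scaled FPKM (9.23 to 10.3) in P7 Tshbcre cells, 11.1 (10.2 to 12.1) in P7 whole glands, 5.61 (5.30 to 6.05) in adult Tshbcre cells, 8.25 (7.74 to 8.82) in adult Ghcre cells, 12.5 (11.5 to 13.6) in adult Lhbcre cells and 5.86 (5.37 to 6.48) in the adult whole gland. The 2 highest, adult Lhbcre cells and P7 whole glands, had overlapping bounds, as had the 2 P7 libraries and the 2 lowest, adult Tshbcre cells and the adult whole gland. Adult Lhbcre cells were 1.97-fold higher than the adult whole gland and P7 whole glands 1.77-fold higher. P7 Tshbcre cells were 1.62-fold higher than adult Tshbcre cells, or 1.22-fold with assembled transcripts. Adult Lhbcre cells differed from the adult whole gland in sex markers too, with Xist at 29.4 against 0.0599 and Ddx3y at 0.0122 against 2.61, and the part of sex in the Prlr difference was not tested.

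The libraries differed in which Prlr transcripts were listed above 0. Long and short receptors share 840 coding bases and part after them, at chromosome 15, plus strand, GRCm38. The short form has 72 bases of its own, whole below with the stop codon in capitals, and codes for 303 residues. The long form has 987, of which 120 from one exon are shown, and codes for 608 residues. The long receptor's tail is the part that carries the signal to STAT5.
Prlr short form, chr15:10345658-10345729: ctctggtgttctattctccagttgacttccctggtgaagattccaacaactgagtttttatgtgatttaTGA
Prlr long form, chr15:10328281-10328400: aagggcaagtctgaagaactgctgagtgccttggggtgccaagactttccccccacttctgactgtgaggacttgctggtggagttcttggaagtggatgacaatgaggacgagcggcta
The short form stood at 6.91 scaled FPKM (6.18 to 7.64) in P7 whole glands, 62.2% of Prlr, and at 8.76 (7.99 to 9.52) in adult Lhbcre cells, 69.9% of Prlr. It was listed at 0 in P7 Tshbcre cells, adult Tshbcre cells, adult Ghcre cells and the adult whole gland. The upper bound of the short transcript was between 0.0214 and 0.0394 scaled FPKM in these 4 libraries. Long forms stood at 9.70 in P7 Tshbcre cells, 4.20 in P7 whole glands, 5.61 in adult Tshbcre cells, 8.25 in adult Ghcre cells, 3.77 in adult Lhbcre cells and 5.86 in the adult whole gland. The 2 libraries with the short form therefore had the lowest long form. All of the short form came from 1 transcript of 1079 nt, against 10328 nt for the curated long one, and weighted by length it took 14.7% of Prlr fragments in P7 whole glands and 19.9% in adult Lhbcre cells. No unnamed transcript overlapped the last 500 bases of the short transcript in any library, the 4 at 0 included. An FPKM of 0 for one of several overlapping transcripts can be a failed assignment, so the 0 values are listings and not evidence of absence.

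**Figure D3:**
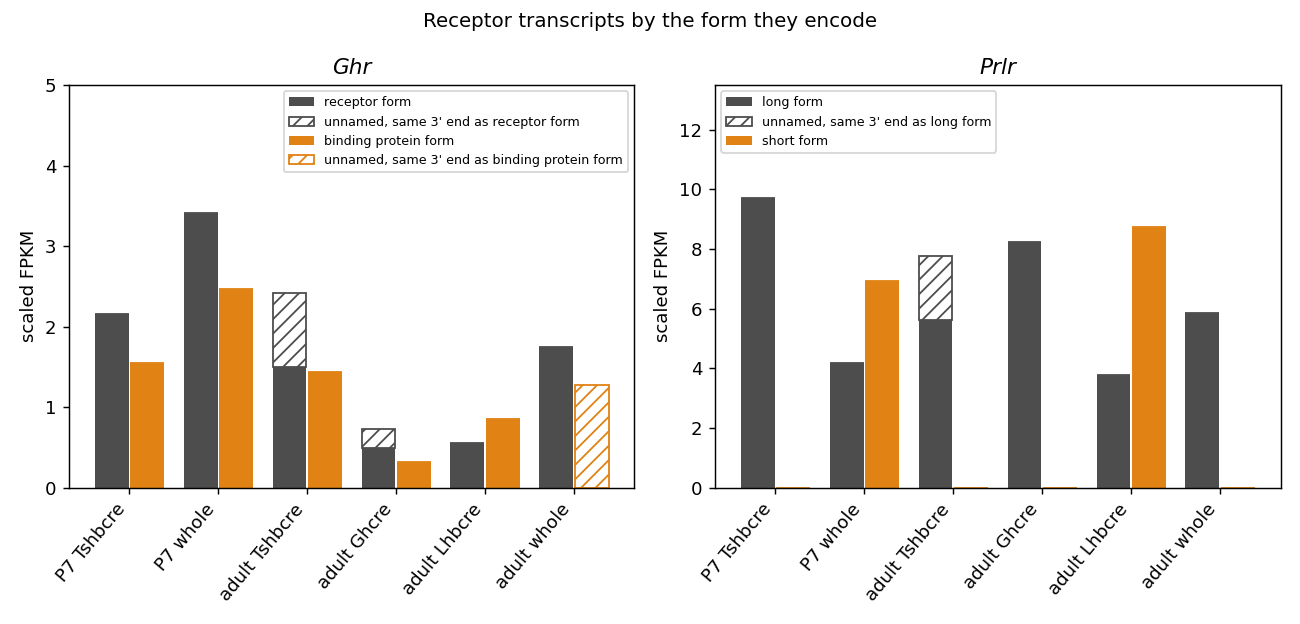
Scaled FPKM of Ghr transcripts (left) and Prlr transcripts (right) by the form they encode in each of the 6 libraries. Solid bars are annotated transcripts and hatched bars unnamed transcripts that end at or near the 3′ end of that form. The short Prlr form appears in P7 whole glands and adult Lhbcre cells, while the Ghr binding protein form is found in all 6 once unnamed transcripts are counted.

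Jak2 (chr19:29229006-29290495), the kinase bound to both receptors, lay between 2.42 and 5.81 scaled FPKM. It stood at 4.38 in P7 Tshbcre cells, 5.13 in P7 whole glands, 5.81 in adult Tshbcre cells, 5.48 in adult Ghcre cells, 3.07 in adult Lhbcre cells and 2.42 in the adult whole gland. Ordered by level, bounds of neighbours overlapped except between P7 Tshbcre and adult Lhbcre cells. The adult whole value came from 1 predicted transcript that ends at 29271272 on chromosome 19, inside a gene that reaches 29290495 (mm39), while an unnamed transcript in the locus added 4.66. With assembled transcripts the 6 libraries lay between 5.13 and 7.21, a ratio of 1.41, with the adult whole gland at 7.08. The 1.79-fold excess of P7 whole glands over the adult whole gland then turned to a 1.32-fold deficit.

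Stat5a (chr11:100750177-100775995) was the most variable of the signalling genes. It stood at 2.11 scaled FPKM (1.88 to 2.37) in P7 Tshbcre cells, 0.997 (0.843 to 1.17) in P7 whole glands, 3.96 (3.46 to 4.48) in adult Tshbcre cells, 9.93 (9.003 to 10.9) in adult Ghcre cells, 9.69 (8.79 to 10.6) in adult Lhbcre cells and 1.21 (1.01 to 1.45) in the adult whole gland. The 3 adult sorts were above both whole-gland libraries, with overlapping bounds only for Ghcre with Lhbcre cells and for the 2 whole-gland libraries. Stat5a was the 1 member of 6 measured that was called apart between adult Ghcre cells and the adult whole gland, 4.95-fold higher, where 9.8% of all genes were called, 4.44% as higher and 5.36% as lower. It was likewise the 1 of 7 between adult Lhbcre cells and the adult whole gland, 4.84-fold higher, where 9.31% were called, 3.85% as higher and 5.46% as lower. Neither call remained with assembled transcripts, since 2 unnamed transcripts added 5.10 to the adult whole gland. The level was then 12.1 in adult Ghcre cells and 9.69 in adult Lhbcre cells against 6.31 in the adult whole gland, differences of 1.79-fold and 1.46-fold. Between adult Tshbcre cells and the adult whole gland Stat5a was 2.24-fold higher (log2 1.17) on annotated transcripts and 1.47-fold lower (log2 -0.56) with assembled ones. Unnamed transcripts reached 200 nt far more often in the adult whole table, at 65.8% of them, than in the adult Lhbcre table, at 4.25%.

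Stat5b (chr11:100671557-100741407), the neighbouring paralog of Stat5a, was lower at P7. It stood at 5.20 scaled FPKM (4.77 to 5.64) in P7 Tshbcre cells, 4.51 (4.22 to 4.82) in P7 whole glands, 7.15 (6.61 to 7.71) in adult Tshbcre cells, 11.3 (10.54 to 12.0) in adult Ghcre cells, 10.4 (9.66 to 11.1) in adult Lhbcre cells and 10.8 (10.01 to 11.7) in the adult whole gland. Both P7 libraries were below all 4 adult ones, but with assembled transcripts P7 whole glands, at 7.22, were no longer below adult Tshbcre cells, at 7.15. Bounds overlapped between the 2 P7 libraries, and the adult whole gland overlapped both Ghcre and Lhbcre cells. P7 whole glands were 2.15-fold lower than the adult whole gland (log2 -1.10), or 1.44-fold with assembled transcripts, and P7 Tshbcre cells were 1.31-fold lower than adult Tshbcre cells, or 1.06-fold. On annotated transcripts Stat5b exceeded Stat5a in every library, by 2.47 times in P7 Tshbcre cells, 4.53 in P7 whole glands, 1.81 in adult Tshbcre cells, 1.14 in adult Ghcre cells, 1.07 in adult Lhbcre cells and 8.96 in the adult whole gland. With assembled transcripts Stat5a was the higher of the pair in adult Ghcre cells, at 12.1 against 11.3. Stat5b then led by less in whole glands, at 10.8 against 6.31 in the adult whole gland and 7.22 against 3.70 in P7 whole glands. It led by more in P7 Tshbcre cells, at 6.71 against 2.11, and in adult Lhbcre cells, at 11.9 against 9.69. The paralogs share sequence, and how reads that match both were assigned is not stated in the labels used.

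Socs2 (chr10:95219765-95253176), which dampens growth hormone signalling, was the least variable gene of the axis on annotated transcripts. Its level was 7.06 scaled FPKM (6.11 to 8.21) in P7 Tshbcre cells, 14.3 (12.7 to 16.0) in P7 whole glands, 11.6 (10.2 to 13.1) in adult Tshbcre cells, 9.28 (8.32 to 10.4) in adult Ghcre cells, 13.2 (12.1 to 14.3) in adult Lhbcre cells and 9.53 (8.13 to 11.1) in the adult whole gland. Ordered by level, all neighbours had overlapping bounds except adult Ghcre cells and P7 Tshbcre cells. The widest difference among the comparisons was 1.90-fold, lower in P7 Tshbcre cells than in P7 whole glands.

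Cish (chr9:107173858-107179983), an early STAT5 target, was lower at P7 in both pairs. It stood at 2.63 scaled FPKM (2.21 to 3.05) in P7 Tshbcre cells, 3.49 (3.10 to 3.90) in P7 whole glands, 6.96 (6.26 to 7.68) in adult Tshbcre cells, 5.50 (5.03 to 5.98) in adult Lhbcre cells and 6.84 (6.09 to 7.60) in the adult whole gland. The P7 libraries did not overlap the adult ones. P7 Tshbcre cells were 2.20-fold lower than adult Tshbcre cells (log2 -1.13) and 2.83-fold lower with assembled transcripts. P7 whole glands were 1.74-fold lower than the adult whole gland (log2 -0.80) and 1.87-fold lower with assembled transcripts. Socs2 was also lower in P7 Tshbcre cells than in adult Tshbcre cells, 1.56-fold, but was 1.45-fold higher in P7 whole glands than in the adult whole gland. The ratio of Socs2 to Cish was 4.09 in P7 whole glands against 1.39 in the adult whole gland, and 2.69 in P7 Tshbcre cells against 1.66 in adult Tshbcre cells.

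The Cish promoter is shown because Cish is a known STAT5 target. It is chr9:107296409-107296708, plus strand, GRCm38.p6, from RefSeq, and capitals mark the STAT motif TTCNNNGAA, which is its own reverse complement.
Cish promoter: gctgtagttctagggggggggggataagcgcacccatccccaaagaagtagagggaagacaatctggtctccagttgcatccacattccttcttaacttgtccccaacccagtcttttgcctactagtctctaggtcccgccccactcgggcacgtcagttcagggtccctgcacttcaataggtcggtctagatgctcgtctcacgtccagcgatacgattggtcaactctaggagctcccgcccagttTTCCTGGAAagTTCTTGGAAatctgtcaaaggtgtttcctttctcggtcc
The motif starts at the RefSeq start (TTCCTGGAA) and 11 bases after it (TTCTTGGAA). Of the 32851 windows, 8.30% hold the motif at least once and 0.457% at least 2 times. The table has 12 windows for 7 of the 9 genes, and among the rest only one Prlr window holds the motif, at -110. Gh and Socs2 were not matched.

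Across the comparisons few members passed the 4-fold threshold. No member of 8 measured was called apart between adult Tshbcre cells and the adult whole gland, where 7.06% of all genes were called (3.22% higher and 3.84% lower). None of 9 was called between P7 Tshbcre cells and P7 whole glands, where 9.38% were (3.26% higher and 6.11% lower). At 2-fold, 2 of 8 members differed in adult Tshbcre cells (Stat5a higher and Prl lower), 1 of 6 in adult Ghcre cells and 1 of 7 in adult Lhbcre cells (Stat5a in both), each against the adult whole gland, and 1 of 9 in P7 Tshbcre against P7 whole glands (Prl). The shares of all genes past 2-fold in these comparisons were 20.6%, 28.2%, 28.9% and 27.8%. Between the ages they were 19.4% for whole glands and 24.4% for Tshbcre cells. There, 3 of 9 members were lower in P7 Tshbcre cells than in adult Tshbcre cells (Prl, Gh and Cish), where 12.8% of all genes were lower by as much and 11.5% higher. Between P7 and adult whole glands, 2 of 8 were lower (Prl and Stat5b) and 1 higher (Ghr), against 9.41% and 9.98% of all genes. The median member difference was log2 -0.64 for P7 against adult Tshbcre cells, with all genes at 0.02, and 0.20 for P7 against adult whole glands, also with all genes at 0.02. For the sorts against whole glands it was -0.31 in P7 Tshbcre, 0.14 in adult Tshbcre, 0.24 in adult Ghcre and 0.25 in adult Lhbcre cells, with all genes within 0.02 of 0. With assembled transcripts the member median was -0.67 for P7 against adult Tshbcre cells and -0.46 for P7 against adult whole glands. For the sorts it was then -0.55 in P7 Tshbcre, -0.08 in adult Tshbcre, 0.04 in adult Ghcre and 0.12 in adult Lhbcre cells. The sign thus turned for whole glands between the ages and for adult Tshbcre cells against the adult whole gland. The 3 adult sort comparisons and the whole-gland age comparison share the adult whole library, and the age and sort comparisons of Tshbcre cells share libraries as well. Sex markers differed between adult Lhbcre cells and the adult whole gland, and the part of sex in the Stat5a and other differences of that comparison was not tested.

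**Figure D4:**
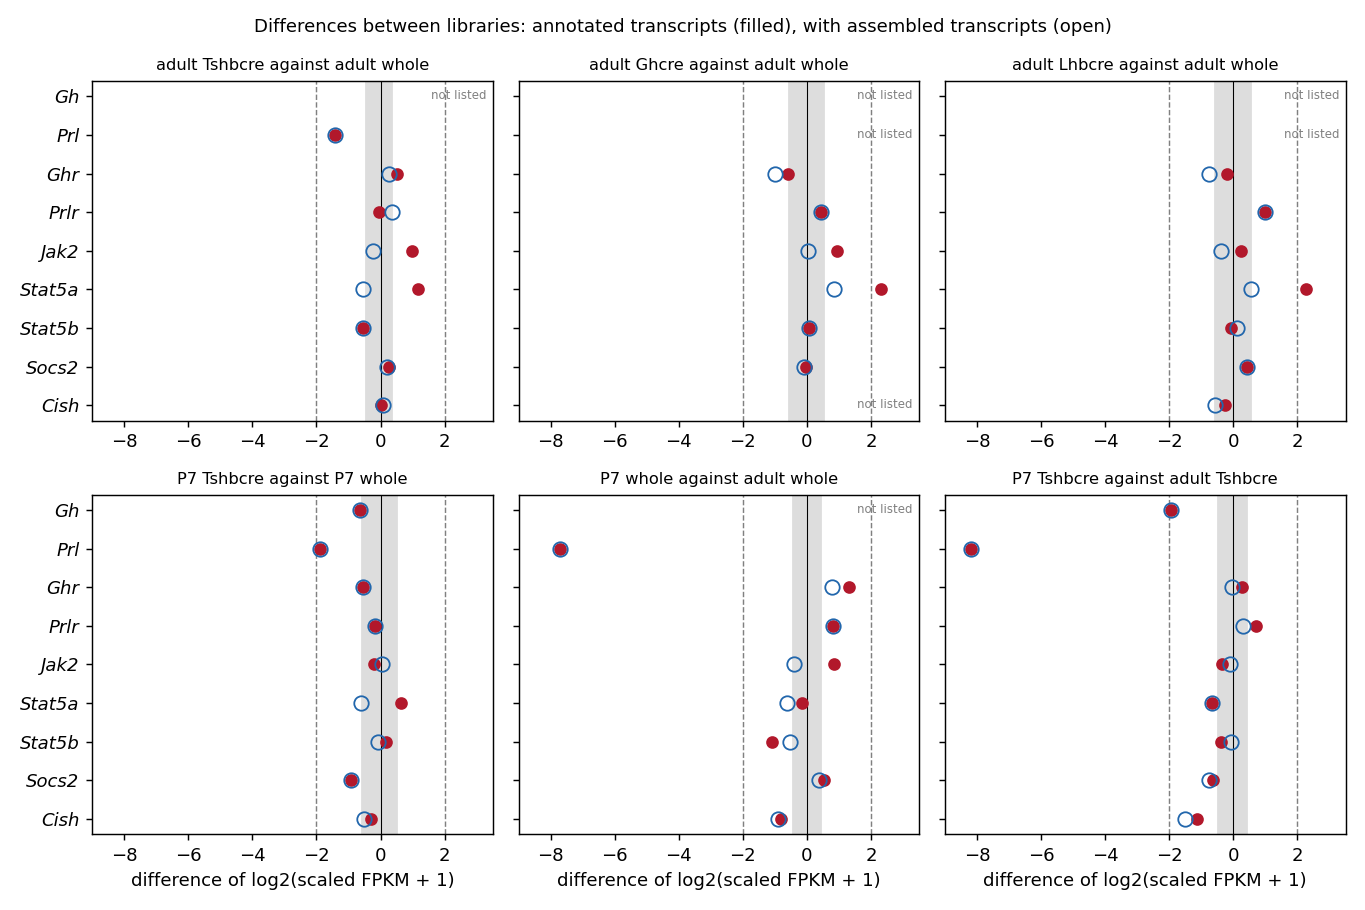
Difference of log2(scaled FPKM + 1) for each gene in the 6 comparisons, first-named library minus the second; filled points are annotated transcripts and open points include assembled ones, grey bands are the quartiles of all genes and dashed lines the 4-fold threshold. Prl lies far outside the threshold in both age comparisons, and Stat5a passes it in adult Ghcre and Lhbcre cells only for the filled points.

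Calls among 25 other genes of Jak-Stat signalling were counted beside the shares of all genes. Against the adult whole gland, 0 of 23 measured were 4-fold higher and 1 lower in adult Tshbcre cells, 1 of 16 higher and 0 lower in adult Ghcre cells, and 1 of 23 higher and 1 lower in adult Lhbcre cells, where 7.06%, 9.8% and 9.31% of all genes were called. Socs3, an inhibitor of cytokine receptors induced by STAT3, was the gene that was higher. It stood at 19.0 scaled FPKM in adult Ghcre cells and 15.4 in adult Lhbcre cells against 2.33 in the adult whole gland, but at 31.9 and 15.4 against 13.3 with assembled transcripts, under the threshold. In P7 Tshbcre cells it was 5.63-fold lower than in P7 whole glands, at 1.004 against 10.3, and 3.66-fold lower with assembled transcripts. For this list 0 of 21 were higher and 2 lower in P7 Tshbcre cells against P7 whole glands, 0 of 22 and 1 in P7 whole against adult whole glands, and 0 of 21 and 3 in P7 against adult Tshbcre cells, where 9.38%, 6.59% and 8.21% of all genes were called. The list's median was log2 -0.58 for P7 against adult whole glands and -0.60 for P7 against adult Tshbcre cells, or -0.17 and -0.13 with assembled transcripts. Against whole glands it was -0.05 in adult Tshbcre, -0.45 in adult Ghcre (-0.13 with assembled transcripts), -0.19 in adult Lhbcre and -0.17 in P7 Tshbcre cells (-0.04 with assembled transcripts). Of the genes called lower, Sh2b3, Stat6, Ptpn11 and Pias4 were listed at 0 in the lower library, and of these only Sh2b3 had no assembled transcript to replace the 0.

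Among 15 known targets of growth hormone and prolactin, Igfbp3 alone passed the threshold in any comparison. Igfbp3, the main carrier of IGF1 in blood, stood at 4.60 scaled FPKM in adult Tshbcre cells and 1.11 in adult Ghcre cells against 33.6 in the adult whole gland, and at 1.21 in P7 Tshbcre cells against 14.99 in P7 whole glands. In adult Lhbcre cells Igfbp3 was also lower than in the adult whole gland, at 7.91, but short of the threshold. Igf1, the chief hormone induced by growth hormone in liver, was low throughout, at 1.66 in P7 whole glands against 0.585 in the adult whole gland and between 0.0450 and 0.376 in the sorts. No target passed of 9 in adult Lhbcre against adult whole, or of 10 in each age comparison, and of 10, 6 and 10 measured Igfbp3 was the 1 in adult Tshbcre, adult Ghcre and P7 Tshbcre cells. The list's median was log2 -0.28 in adult Tshbcre, -0.18 in adult Ghcre, -0.23 in adult Lhbcre and -0.76 in P7 Tshbcre cells against whole glands, 0.17 in P7 against adult whole glands and -0.25 in P7 against adult Tshbcre cells. With assembled transcripts these medians were -0.37, 0.25, 0.04, -0.36, 0.13 and -0.05, so that the sign turned in adult Ghcre and adult Lhbcre cells. In the same comparisons 7.06%, 9.8%, 9.31%, 9.38%, 6.59% and 8.21% of all genes were called. Endothelial markers (Pecam1, Cdh5, Plvap, Kdr and Emcn) were lower in the Tshbcre sorts together with Igfbp3, summing to 14.5 in adult Tshbcre cells against 108 in the adult whole gland and to 3.52, with Kdr at 0, in P7 Tshbcre cells against 78.2 in P7 whole glands. Mesenchymal markers summed to 14.6 in adult Tshbcre cells against 75.7 in the adult whole gland. The part of those cells in the Igfbp3 difference was not tested.

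Among 16 regulators of somatotropes and lactotropes, Trhr and Drd2 stood apart in the Tshbcre sorts. Trhr encodes the receptor for TRH, which stimulates thyrotropes and lactotropes, and was at 14.6 scaled FPKM in P7 Tshbcre cells against 1.36 in P7 whole glands, and at 10.9 in adult Tshbcre cells against 0.790 in the adult whole gland. Drd2 was at 0.484 in P7 Tshbcre cells against 5.52 in P7 whole glands, and at 3.12 in adult Tshbcre cells against 23.8 in the adult whole gland. The adult difference was 6.02-fold, lower in the sort, but 3.01-fold lower with assembled transcripts. In all, 1 of 14 was called higher and 1 lower in adult Tshbcre cells, 0 of 11 higher and 2 lower in adult Ghcre cells, and 1 of 14 higher and 2 lower in adult Lhbcre cells, each against the adult whole gland. Of all genes, 3.22% were higher and 3.84% lower in adult Tshbcre cells, 4.44% and 5.36% in adult Ghcre cells, and 3.85% and 5.46% in adult Lhbcre cells. Gal, which encodes the peptide galanin made by lactotropes, was the higher one in adult Lhbcre cells, at 19.96 against 2.71. Sex markers differed between those libraries too, with Xist at 29.4 against 0.0599, and the part of sex in the Gal difference was not tested. Foxo1 was at 1.46 in adult Ghcre cells against 10.49 in the adult whole gland, but at 11.2 with assembled transcripts. In P7 Tshbcre cells against P7 whole glands 1 of 13 was higher and 2 lower. Between the ages 0 of 14 were higher and 1 lower in whole glands, and 0 of 12 higher and 1 lower in Tshbcre cells. The shares of all genes called were 9.38% for P7 Tshbcre against P7 whole, 6.59% for whole glands between the ages and 8.21% for Tshbcre cells between the ages. Pappa2, a protease of IGF binding proteins, was the one in whole glands, at 3.36 in P7 whole glands against 18.7 in the adult whole gland, 4.52-fold lower and 5.47-fold with assembled transcripts. Ghrhr, Nr4a1 and, in adult Lhbcre cells, Pappa2 were called lower where listed at 0, and none of these calls remained with assembled transcripts. The list's median was log2 -0.74 in adult Tshbcre, -0.06 in adult Ghcre, -0.83 in adult Lhbcre and 0.19 in P7 Tshbcre cells against whole glands, -0.51 in P7 against adult whole glands and -0.26 in P7 against adult Tshbcre cells. With assembled transcripts these medians were -0.56, 0.12, -0.40, 0.23, -0.62 and 0.03, so that the sign turned in adult Ghcre cells and in P7 against adult Tshbcre cells.

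Genes with the profile most like that of each member were found by the root mean square difference of centred log2 levels over the libraries that list it, among protein-coding genes above 1 scaled FPKM there. For Stat5b the nearest of 4787 genes were Klhl21 (0.0607), Slf2 (0.0917) and Setd7 (0.0939), against a spread of Stat5b itself of 0.461. For Cish, over 5 libraries and 7551 genes, they were Flywch1 (0.0718), Hs1bp3 (0.0743) and Slc33a1 (0.0874). Jak2 lay nearest to Dnajc7 (0.0741), Rab11fip2 (0.124) and Ppil1 (0.149). Prlr lay nearest to Ctps (0.0973) and the histone genes H2ac20 (0.112) and H4c8 (0.127). Socs2 lay nearest to Ppip5k2 (0.102), Tomm22 (0.103) and Pias2 (0.114). Ghr (H2bc14 at 0.203, Ncl at 0.209 and Hmga1 at 0.215) and Stat5a (Fam183b at 0.325, Rps28 at 0.381 and Jakmip1 at 0.395) had larger distances and were the members with the widest own spread, 0.641 for Ghr and 0.994 for Stat5a. The spread was 0.311 for Socs2, whose distances were smaller. Gh and Prl are listed in too few tables for this measure.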

How the data were processed

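The authors deposited 1 Cufflinks isoform table per library with FPKM, its bounds and a coverage signal for each transcript. Per the submitters' processing notes, Bowtie2, Cufflinks and FastQC were run and the build is mm39, with no versions and no word on strand. Within a table the deposited coverage signal is FPKM times 1 constant, from which relative depth was taken. The number of reads is not given here. The adult Ghcre table ends on chromosome 5 at 44957466. Cish and the sex markers Xist and Ddx3y lie past that end, so sex markers could not be read in adult Ghcre cells. Gh and Prl are not listed there either, although their chromosomes are covered.

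FPKM of annotated transcripts were summed per gene and divided by a median-of-ratios factor over 5808 genes (pandas 2.3.3, numpy 2.4.6). Pseudocount, floor and fold were 1, 1 and 4. The rule was tested on simulated data with counting noise only. Genes given a known fold there lay above the levels of the receptor and signalling genes. The simulation thus covers neither those low levels nor variation between animals. Positions are mm39, counted from 1, except sequences, from GENCODE and RefSeq on GRCm38. Named were all 9 members, up to 4 called genes per pathway list and comparison, and 3 genes nearest to each member, while Pou1f1, Igf1 and single marker genes were named after their values were seen. One result under this rule is not reported here. The members, lists and rules were chosen with earlier results of these data known.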

Additional observations from a re-analysis of the deposited data

How the results depend on the processing

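Each member difference was recomputed under 11 alternatives, 502 values in all: 459 kept their direction and side of the threshold, 7 fell under it, 9 rose past it, and 27 changed sign below it, 10 of them with assembled transcripts added. Both Prl calls between the ages held in every alternative run. The number of members called apart was otherwise as follows. Between adult Ghcre cells and the adult whole gland it was 1, but 0 without scaling, with a pseudocount of 5, with curated transcripts only and with assembled transcripts, and 2 with equal sums. Between adult Lhbcre cells and the adult whole gland it was 1, but 0 with a pseudocount of 5, curated transcripts only or assembled transcripts. Between P7 Tshbcre cells and P7 whole glands it was 0, but 1 without scaling. At a fold of 2 it was 2 in adult Tshbcre against adult whole, 1 in P7 Tshbcre against P7 whole, and 3 in each age comparison. With equal sums the median log2 difference of all genes was 1.09 in adult Ghcre against adult whole (79.2% of calls higher, against 45.3% as reported), 0.37 in adult Lhbcre against adult whole (52.7% against 41.3%), 0.36 in P7 against adult Tshbcre (52.6% against 43.5%), 0.27 in P7 Tshbcre against P7 whole (42.4% against 34.8%) and 0.14 in P7 against adult whole. Without scaling it was -0.47 in P7 Tshbcre against P7 whole (24.6% of calls higher), -0.46, -0.16 and -0.14 in adult Ghcre, Lhbcre and Tshbcre against adult whole, and 0.32 in P7 against adult whole. With curated transcripts only it was -0.14 in adult Ghcre against adult whole (35.0%) and -0.13 in P7 Tshbcre against P7 whole.

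Chosen after seeing the data, shares weighted by length put the Ghr binding protein form at 19.4% in P7 Tshbcre, 19.4% in P7 whole, 23.6% in adult Tshbcre, 16.4% in adult Ghcre and 32.4% in adult Lhbcre, and the short Prlr form at 14.7% in P7 whole and 19.9% in adult Lhbcre. Assigning unnamed transcripts put the Ghr binding protein form at 42.3% in the adult whole gland. With curated transcripts only the short Prlr form was 78.7% in adult Lhbcre. No paired analysis was possible because each group is 1 library. One library per group limits every value, and low levels rest on few reads.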
